A study of Mus musculus with 20 samples.

Results

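Complement is a cascade of blood and tissue proteins that tags cells and debris for uptake and draws in leukocytes. The classical route starts when C1q, a protein built from the A, B and C chains that C1qa, C1qb and C1qc encode, binds a target and C4 is cleaved. C3 is the protein on which the routes of activation meet, and factor B (Cfb) joins cleaved C3 to form the enzyme of the alternative route. Cleavage of C3 and C5 also frees the small peptides C3a and C5a, the anaphylatoxins, which act on the receptors encoded by C3ar1, C5ar1 and C5ar2. Tissue macrophages are a known source of C1q, fibroblasts and epithelial cells can make C3, and the anaphylatoxin receptors are best known from myeloid cells.

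The 9 genes C1qa, C1qb, C1qc, C4b, C3, Cfb, C3ar1, C5ar1 and C5ar2 were chosen by name from a table of 52783 mouse genes. RNA was sequenced from sorted cells of 66cl4 and 67NR tumours, which grew from cells of these mouse mammary carcinoma lines of the 4T1 family, 1000000 injected into the mammary fat pad of adult female BALB/cJ mice with an intact immune system. In this model 66cl4 tumours metastasise and 67NR tumours do not, and each tumour type is represented by a single line. Every dissociated tumour gave a library of CD45+ cells, the gate that collects leukocytes, and a library of CD45- cells, which hold the tumour cells and the stroma. There were 10 mice, 5 per tumour, thus 20 libraries and 5 per group, with 12959951 to 28080226 counts each. No agent was given and no line carried a labelled alteration, so the 4 groups differ by tumour line and by gate. In bulk RNA, fewer cells of a type cannot be told apart from less RNA per cell.

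Labels of 66cl4 animals 5 and 6 contradict each other, since the recorded cell type names the opposite gate to the title. Libraries were placed by title. Levels of 7 macrophage marker genes, which include no member, summed to 57250 in the library of animal 5 titled CD45+. They summed to 1264 in its CD45- library, and to 40991 and 211 in animal 6. A level here is a count scaled to the depth of its library by DESeq2, so that libraries but not genes can be compared. The gate was set by CD45 alone, and these 7 genes mark only a type of leukocyte within it. They summed to 38555 to 57250 in 66cl4 CD45+ libraries and to 49121 to 68433 in 67NR CD45+ libraries. The same 7 genes summed to 119 to 1264 in 66cl4 and to 733 to 3005 in 67NR CD45- libraries, and none of them was at 0 in a whole group. Among the CD45- libraries of 66cl4 tumours, animal 5 had the highest macrophage sum, 1264, and in 67NR tumours animal 4 had, with 3005.

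The proximal promoters of C1qb and C1qc, whose levels ran together below, and of C3, whose pattern differed, are shown as the sequence around which their transcription starts. They are the 250 bases before the start in RefSeq, on the assembly GRCm38.p6 and read on the minus strand, at chr4:136886201-136886450 for C1qb, chr4:136892915-136893164 for C1qc and chr17:57228137-57228386 for C3. Capitals mark matches, on either strand, to GAGGAA, a core of sites of the myeloid factor PU.1, and to TTNNGNAA, a pattern of C/EBP sites.
C1qb: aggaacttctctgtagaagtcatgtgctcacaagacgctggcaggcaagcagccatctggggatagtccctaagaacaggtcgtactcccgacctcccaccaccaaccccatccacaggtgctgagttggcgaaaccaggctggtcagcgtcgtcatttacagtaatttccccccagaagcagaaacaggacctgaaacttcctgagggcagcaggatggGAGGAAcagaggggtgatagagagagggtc
C1qc: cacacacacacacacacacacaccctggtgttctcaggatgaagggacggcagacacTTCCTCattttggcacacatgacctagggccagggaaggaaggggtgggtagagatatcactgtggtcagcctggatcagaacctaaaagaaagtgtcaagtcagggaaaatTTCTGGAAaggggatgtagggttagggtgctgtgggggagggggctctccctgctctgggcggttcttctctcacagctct
C3: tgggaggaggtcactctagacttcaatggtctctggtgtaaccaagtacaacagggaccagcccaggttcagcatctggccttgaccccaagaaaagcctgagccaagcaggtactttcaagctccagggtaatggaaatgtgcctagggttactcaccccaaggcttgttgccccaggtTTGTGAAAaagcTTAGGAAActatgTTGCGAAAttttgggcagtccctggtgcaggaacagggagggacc
C1qb had a GAGGAA match 30 bases before the start, and C1qc had this match 193 bases before it, on the opposite strand, and a TTNNGNAA match at 81. C3 held TTNNGNAA matches at 70, 58 and 45 bases before the start, the last of which reads on both strands, and no GAGGAA match. No match of the 2 patterns overlapped another in these 3 windows apart from that at 45, which fits TTNNGNAA on both strands. Of 32851 promoters of this length in the same reference, 23.25% held GAGGAA and 36.85% held TTNNGNAA. Promoters of 6 of the 9 genes were in that reference, with a pair of starts for C5ar2, and of these 7 windows 3 held GAGGAA and 5 held TTNNGNAA. A pattern of interferon-regulatory factors, GAAA repeated after 2 bases and present in 2.977% of all windows, occurred in none of the 7. A match describes letters and is not a measured site.

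Compared per transcript length, as TPM (counts divided by the length of the longest annotated transcript of each gene and by their sum in the library), C1qb stood highest of the 9 genes in the CD45+ cells of both tumours. Its mean level there was 961 ± 255 TPM in 66cl4 and 1798 ± 657 TPM in 67NR tumours (SD, n = 5). In 66cl4 CD45+ cells C1qc (437 TPM), C1qa (432 TPM), C5ar1 (327 TPM) and C3ar1 (285 TPM) followed, and the ranges of these neighbours overlapped. C3 (52.9 TPM), C4b (17.0 TPM), Cfb (10.7 TPM) and C5ar2 (3.77 TPM) came last. In 67NR CD45+ cells C1qa (799 TPM), C1qc (765 TPM), C3ar1 (236 TPM) and C5ar1 (104 TPM) came after C1qb, then Cfb (91.3 TPM), C3 (50.2 TPM), C4b (43.4 TPM) and C5ar2 (1.07 TPM). C5ar1 thus stood above C3ar1 on average in one tumour and below it in the other. In CD45- cells of 66cl4 tumours C3 was the first of the 9 genes, with 72.5 ± 11.2 TPM (SD, n = 5), and its lowest library (59.8 TPM) was above the highest value of any other member there. In CD45- cells of 67NR tumours C3 reached 14.6 ± 5.06 TPM (SD, n = 5) and stood behind the 3 C1q chains, with ranges that overlapped those of C1qa and C1qc. Without 67NR CD45- replicate 4 the mean of C3 (14.1 TPM) was above those of C1qc (13.7 TPM) and C1qa (11.5 TPM).

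**Figure D1:**
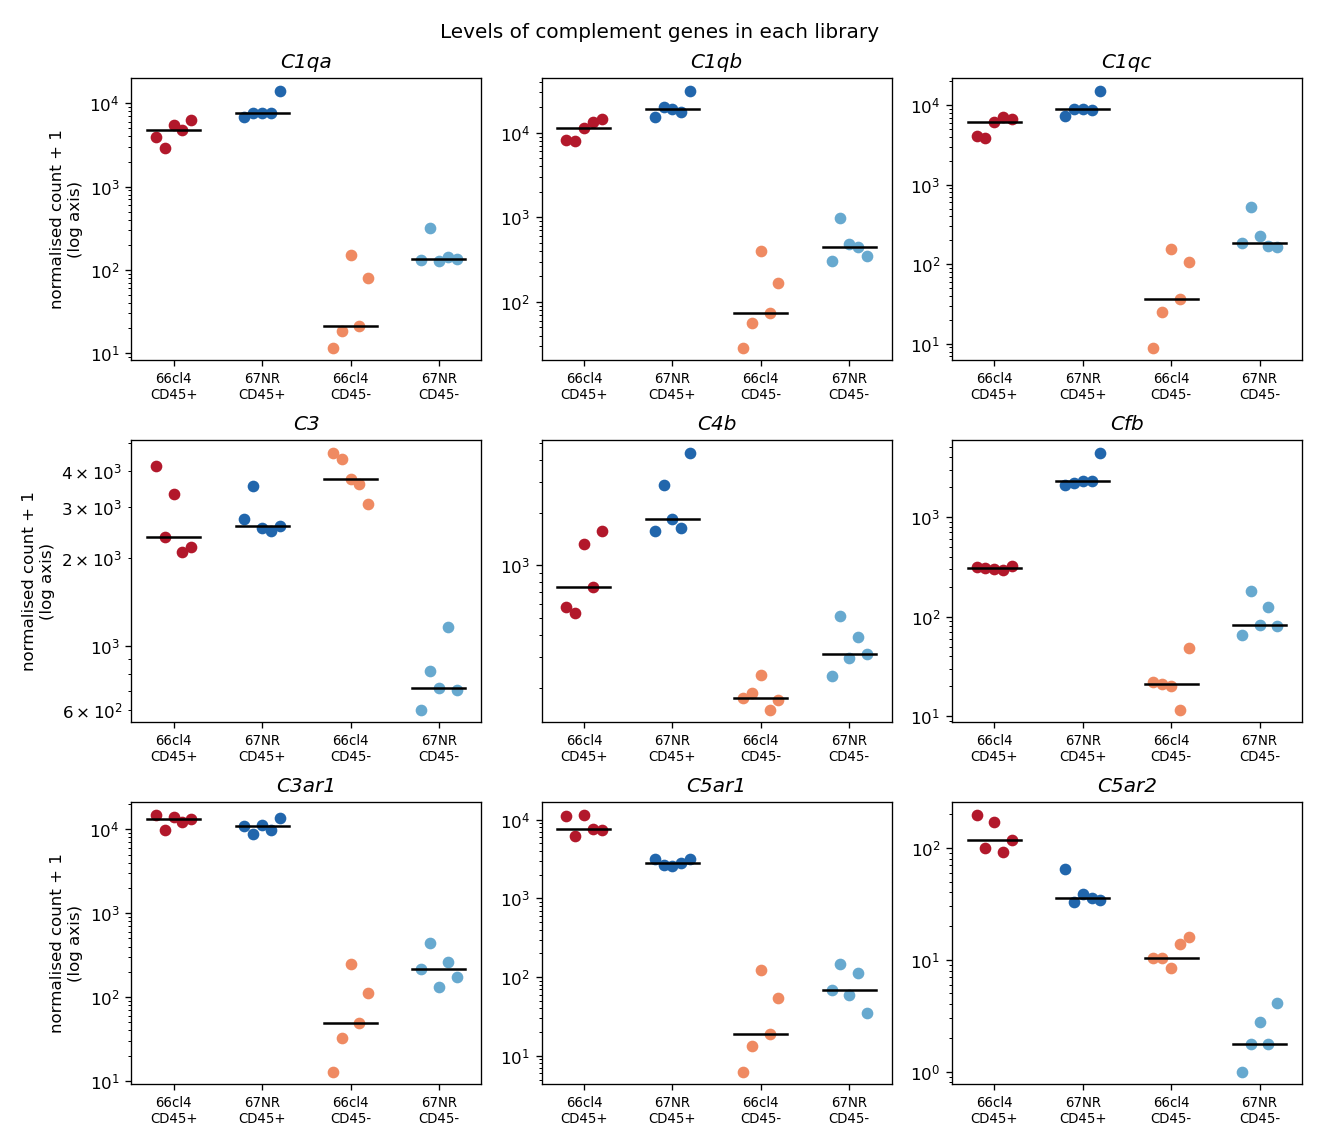
Level of each of the 9 genes (normalised count + 1, log axis) in the 20 libraries, by tumour and gate. Points are animals in the order of their numbers and lines are group medians. Cfb separates the CD45+ groups, 296 to 319 in 66cl4 against 2109 to 4371 in 67NR, and C3 is the gene whose 66cl4 CD45- libraries are not below the CD45+ ones.

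The first question was how the immune cells of the metastatic tumour differ from those of the non-metastatic one. Among the 9 genes, 4 were called between 66cl4 and 67NR CD45+ cells: C5ar1 and C5ar2 were higher and Cfb and C4b lower in 66cl4 tumours. A call means an adjusted p under 0.05 in edgeR's quasi-likelihood test over all 14676 genes tested and a log2 fold change beyond 1 in size. Of all genes tested, 5.01% were called higher and 6.82% lower in 66cl4, against 2 and 2 of the 9 members. Libraries of the 2 tumours did not overlap for 6 members, compared with 15.1% of all genes. The median log2 fold change was -0.78 over the members and 0.01 over all genes.

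The C1q chains were lower in 66cl4 CD45+ cells by less than the fold that a call needs. C1qa (ENSMUSG00000036887) had levels of 3976, 2893, 5490.3, 4819.9 and 6388 in 66cl4 animals 3 to 7, and of 6772, 7610.4, 7724, 7758 and 13986 in 67NR animals 1 and 4 to 7. The lowest 67NR library stayed above the highest 66cl4 library. C1qb (ENSMUSG00000036905) stood at 8193, 8057, 11272, 13224 and 14365 in 66cl4 and at 15476, 20286, 19257, 17575 and 30896 in 67NR tumours. C1qc (ENSMUSG00000036896) stood at 4143, 3854, 6196, 7040.0 and 6639 against 7242, 8836, 8900.0, 8616 and 14980.1. For each chain the groups were apart, and 67NR animal 7 was the highest library of all. The log2 fold changes were -0.87 ± 0.23 for C1qa, -0.89 ± 0.21 for C1qb and -0.78 ± 0.22 for C1qc (edgeR, SE), with adjusted p-values of 0.0182, 0.0114 and 0.0231. In a two-sided exact permutation test of the levels p was 0.00794 for each, the smallest that the 252 splits of 10 libraries allow. Without 66cl4 CD45+ replicate 7 the fold changes of C1qa (-1.01) and C1qb (-1.0) passed the fold threshold.

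The 3 chains kept close proportions. C1qb made up 49.8 to 55.3% of the summed TPM of the chains in 66cl4 CD45+ libraries and 52.3 to 56.0% in 67NR CD45+ libraries. C1qa took 20.5 to 25.8% and 22.0 to 24.8%, and C1qc 22.2 to 25.8% and 22.1 to 23.3%. Although the summed level moved from 1385 to 2605 TPM in 66cl4 and from 2081 to 5522 TPM in 67NR libraries, the proportions overlapped between the tumours. As all 3 chains enter each C1q molecule, these are values of transcripts and not of protein.

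Macrophage markers stood beside these values. Of the 7 markers, 2 were called lower in 66cl4 CD45+ cells (Adgre1, which encodes F4/80, by -1.11 and Ms4a7 by -1.38 on the log2 scale) and none higher. Among those not called, Mertk had 418 to 731 counts, not scaled to depth, in 66cl4 and 188 to 312 in 67NR CD45+ libraries, with no overlap. Counts of Cd68 (6470 to 10110 against 3568 to 9550), Csf1r (7176 to 13281 against 6204 to 16299), Mrc1 (15956 to 30069 against 15203 to 21685) and Fcgr1 (2721 to 3880 against 2864 to 4940) overlapped. Taken per macrophage marker, as the log2 level minus the mean log2 level of the 7 genes, the chains were still lower in 66cl4, by -0.63 for C1qa, -0.64 for C1qb and -0.53 for C1qc. The two-sided exact permutation p-values were 0.0159, 0.0159 and 0.0317, and the groups overlapped. The mean of the markers itself differed by -0.26 (exact p = 0.103). When Mertk was left out of the markers, the exact p-values of the 3 chains were 0.0556, 0.0714 and 0.135. That of C1qc was also above 0.05 without Cd68 (0.0714), without 66cl4 CD45+ replicate 3, 4 or 5 (0.0635 each) and without 67NR CD45+ replicate 5 (0.0714) or 7 (0.0794).

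C4b (ENSMUSG00000073418), which encodes the C4 that is cleaved after C1q has bound, was called lower in 66cl4 CD45+ cells. Its levels were 577, 529, 1313, 751 and 1570.3 in 66cl4 and 1569, 2879, 1845, 1627 and 4363 in 67NR libraries. The 67NR libraries were higher apart from animal 1, which met the highest 66cl4 library, animal 7. The log2 fold change was -1.35 ± 0.37 (edgeR, SE; adjusted p = 0.0267). This call was lost without a filter on low counts (adjusted p = 0.0834), without the libraries of 66cl4 animals 5 and 6 (0.0706), and in single omissions without 66cl4 CD45+ replicate 3 (0.0588), 67NR CD45+ replicate 4 (0.0626) or 67NR CD45+ replicate 7 (0.0510). It was also lost when edgeR tested against a log2 fold change of 1 (adjusted p = 0.702). Of the 50-base stretches of the C4b transcript 35.2% also occur in C4a, so the counting may divide reads between the pair. The sum of C4b and C4a was 1027 in 66cl4 and 2610 in 67NR CD45+ cells, 2.54-fold higher in 67NR (two-sided exact permutation test, p = 0.0159). Markers of fibroblasts, which can also make C4, summed to 218 to 1534 in 66cl4 and 663 to 2525 in 67NR CD45+ libraries, with 3 of 8 called lower in 66cl4, and their part in the result was not tested.

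Cfb (ENSMUSG00000090231) showed the widest gap of the 9 genes in CD45+ cells. It stood at 314, 309, 302, 296 and 319 in 66cl4 and at 2109, 2186, 2312, 2289.9 and 4371 in 67NR tumours. Each 67NR library was thus far above each 66cl4 library, and the latter had a coefficient of variation of 3.09%. The mean was 8.62-fold higher in 67NR tumours (log2 fold change -3.08 ± 0.19, edgeR, SE; adjusted p = 2.82e-06), and exact p was 0.00794. Without 67NR animal 7, the highest library, the log2 fold change was -2.86 (adjusted p = 4.35e-08). Of the Cfb transcript 81.4% is shared with the overlapping predicted gene Gm20547, to which the counting gave a level of at most 4.20.

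C3 (ENSMUSG00000024164) did not separate the CD45+ groups. Its levels were 4142, 2369.7, 3315, 2109 and 2189.9 in 66cl4 and 2725, 3541, 2537, 2480.4 and 2585 in 67NR libraries, so that the groups overlapped throughout. The log2 fold change was 0.03 ± 0.20 (edgeR, SE; adjusted p = 0.926), with a sign that changed when libraries were left out. Accordingly the ratio of C3 to Cfb on the TPM scale parted the tumours, with 3.67 to 7.06 in 66cl4 and 0.317 to 0.868 in 67NR CD45+ libraries (exact permutation p = 0.00794). That of C3 to C4b was 1.46 to 7.52 in 66cl4 and 0.621 to 1.82 in 67NR libraries (exact permutation p = 0.0238).

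The receptors of the anaphylatoxins did not move alike in CD45+ cells. C5ar1 (ENSMUSG00000049130), the signalling receptor of C5a, stood at 11124, 6132, 11378, 7509 and 7344 in 66cl4 and at 3168, 2631, 2556, 2781 and 3131 in 67NR libraries. Every 66cl4 library was above every 67NR library, and the mean was 3.05-fold higher (log2 fold change 1.62 ± 0.18, edgeR, SE; adjusted p = 0.000171). C5ar2 (ENSMUSG00000074361), the second receptor of C5a, which does not couple to G proteins, was much lower. Its levels were 195, 99.4, 169.7, 91.5 and 116 in 66cl4 and 64.0, 31.9, 37.6, 34.8 and 32.9 in 67NR libraries. These groups were also apart, with a 3.34-fold higher mean in 66cl4 (log2 fold change 1.75 ± 0.29, edgeR, SE; adjusted p = 0.00144). When edgeR tested against a log2 fold change of 1, the call of C5ar2 was lost (adjusted p = 0.0653). For both C5ar1 and C5ar2 the exact p was 0.00794. The ratio of C5ar1 to C5ar2 on the TPM scale was 77.1 to 111 in 66cl4 and 66.8 to 128 in 67NR libraries (exact permutation p = 0.405).

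C3ar1 (ENSMUSG00000040552), the receptor of C3a, had levels of 14742, 9720.5, 14201, 12148 and 13339.5 in 66cl4 and of 10821, 8846, 11279, 9816 and 13646 in 67NR CD45+ libraries. The groups overlapped, and the log2 fold change of 0.25 ± 0.15 had an adjusted p of 0.242 (edgeR, SE). The ratio of C5ar1 to C3ar1 on the TPM scale was 0.933 to 1.36 in 66cl4 and 0.384 to 0.504 in 67NR CD45+ libraries, with no overlap (exact permutation p = 0.00794). In CD45- libraries this ratio was 0.640 to 0.836 and 0.331 to 0.757 (exact permutation p = 0.0794). Per macrophage marker, all 3 receptors were higher in 66cl4 CD45+ cells, by 0.50 for C3ar1, 1.83 for C5ar1 and 1.96 for C5ar2 on the log2 scale, with no overlap and an exact p of 0.00794 each.

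Neutrophils also carry C5ar1, and their markers moved with the tumour. The sum of 7 neutrophil genes was 44190 to 125311 in 66cl4 and 7185 to 52320 in 67NR CD45+ libraries, 5 of the 7 were called higher in 66cl4, and none was at 0. In 66cl4 animals 3 to 7 the sums were 118436, 61673, 125311, 113212 and 44190, beside C5ar1 levels of 11124, 6132, 11378, 7509 and 7344. In 67NR animals 1 and 4 to 7 they were 52320, 27342, 16907, 15099.5 and 7185, beside levels of 3168, 2631, 2556, 2781 and 3131. The part of the neutrophils in the result was not tested. The 5 monocyte markers summed to 19994 to 36696 in 66cl4 and 30479 to 48028 in 67NR libraries, with 2 called lower in 66cl4. The 5 T cell markers summed to 1063 to 4473 and 1171 to 4120, with none called.

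**Figure D2:**
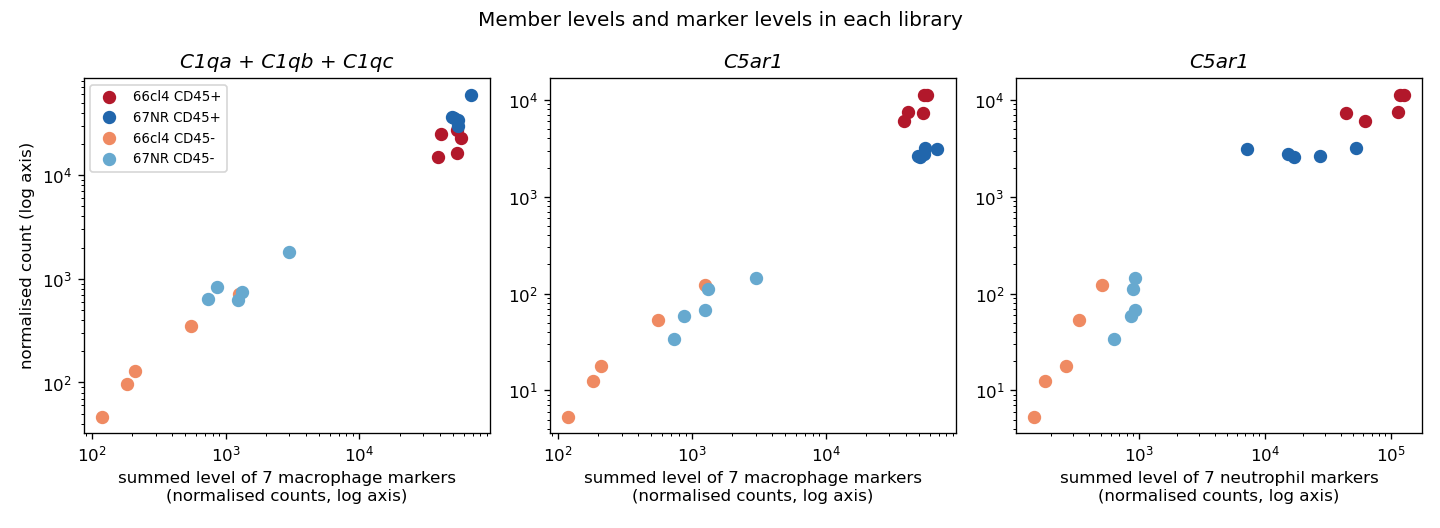
Summed level of the C1q chains against 7 macrophage markers (left), and level of C5ar1 against 7 macrophage (middle) and 7 neutrophil markers (right), in normalised counts on log axes. Each point is a library. At macrophage sums of 38555 to 68433, C5ar1 is at 6132 or more in all 66cl4 and at 3168 or less in all 67NR CD45+ libraries.

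The next comparison was of the CD45- cells, where C3 was higher and Cfb, C1qb and C1qc were lower in 66cl4 than in 67NR tumours. Of the 8 members that passed the filter on low counts, 4 were called, 1 higher and 3 lower. Among 14844 genes tested, 13.2% were called higher and 18.9% lower, and libraries did not overlap for 52.9% of them and for 3 of the 8 members. The median log2 fold change was -1.48 over these members and -0.01 over all genes.

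C3 stood at 4595, 4375, 3748, 3615 and 3073 in 66cl4 CD45- libraries and at 603, 821, 715, 1162 and 707 in 67NR CD45- libraries. The lowest 66cl4 value was thus beyond the highest 67NR value, and the mean was 4.84-fold higher in 66cl4. The log2 fold change was 2.31 ± 0.17 (edgeR, SE; adjusted p = 4.75e-08), and omission of any library left the ratio of the means between 4.56 and 5.46. Cfb was low in both, with 21.2, 19.95, 19.1, 10.6 and 46.9 in 66cl4 and 64.9, 182, 80.8, 125 and 78.7 in 67NR libraries. Its groups did not overlap either, in the opposite direction (log2 fold change -2.14 ± 0.37, edgeR, SE; adjusted p = 0.000182). The ratio of C3 to Cfb on the TPM scale was 35.1 to 182 in 66cl4 and 2.42 to 4.98 in 67NR CD45- libraries (exact permutation p = 0.00794). C4b was at 173, 186, 236, 149 and 169.7 against 232, 511, 292, 386 and 311, with an overlap of animal 5 of 66cl4 and animal 1 of 67NR. Its log2 fold change of -0.89 ± 0.19 (edgeR, SE; adjusted p = 0.00101) was under the threshold of a call.

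Markers of non-immune cells differed between these CD45- groups as well. The sum of 6 epithelial genes was 6057 to 6844 in 66cl4 and 125 to 391 in 67NR CD45- libraries, with 2 genes called higher and 1 lower in 66cl4 and none at 0. Krt8 (4034 to 8796 counts) and Krt18 (745 to 2001 counts) made up most of the 66cl4 sum. Epcam had 3 to 24 counts in 66cl4 and 15 to 84 in 67NR libraries, and Cdh1 17 to 29 and 17 to 82. Krt5 and Krt14 had at most 26 counts in a library. The sum of 8 fibroblast genes was 9471 to 15229 and 11050 to 18127, with 1 called higher and 4 lower. The 5 endothelial genes summed to 490 to 970 and 935 to 3782, with 4 called lower in 66cl4. Their part in the result for C3 was not tested.

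The C1q chains and the receptors were at low levels in the CD45- gate. C1qa had levels of 10.6, 17.5, 152, 20.2 and 77.9 in 66cl4 and of 132, 319.6, 126, 141 and 133 in 67NR CD45- libraries. C1qb had 27.9, 54.9, 402, 73.3 and 165 against 305, 968, 486, 439 and 344, and C1qc 7.96, 24.3, 157, 36.1 and 107 against 184, 518, 226, 167 and 165. Within 66cl4, animal 5 was the highest and animal 7 the next for each chain, which was also the order of their macrophage sums, 1264 and 556 against 119 to 211 in the other animals. C1qb (-1.77 ± 0.67, adjusted p = 0.0426) and C1qc (-1.88 ± 0.67, adjusted p = 0.0326) were called lower in 66cl4 by edgeR (log2 fold change, SE), and C1qa (-1.57 ± 0.67, adjusted p = 0.0617) was not. C3ar1 stood at 11.9, 31.2, 248, 47.8 and 112 against 218, 436, 132, 264 and 173, and C5ar1 at 5.31, 12.5, 122, 18.1 and 53.9 against 68.4, 145, 58.8, 110.2 and 33.7. Neither receptor was called (adjusted p = 0.101 and 0.274). Without 66cl4 CD45- replicate 5, or without 66cl4 animals 5 and 6, 8 of the 9 members were called, 6 of them lower in 66cl4 (the chains, Cfb, C3ar1 and C5ar1) and 2 higher (C3 and C5ar2, which then passed the filter). Without 66cl4 CD45- replicate 4 or 6, or with the replicate numbers as blocks, only C3 and Cfb were. Among the 10 single omissions C1qb was called in 1 and C1qc in 6. The part of the macrophages in these differences was not tested.

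C5ar2 did not pass the filter in CD45- cells, where it had 7 to 15 counts per library in 66cl4 and 0 to 3 in 67NR tumours. As levels these were 9.29, 9.35, 7.49, 12.7 and 14.97 against 0, 0.750, 1.76, 0.781 and 3.07, with no overlap (exact permutation p = 0.00794). Over the groups 58 counts in 66cl4 stood against 7 in 67NR, a depth-scaled ratio of 8.84 with a 95% interval of 4.03 to 23.0, which covers counting error only. As in CD45+ cells it was higher in 66cl4, whereas C5ar1 and C3ar1 had log2 fold changes of -0.92 and -1.39 in CD45- cells, neither of them called. A share of 4.56% of the C5ar2 transcript occurs in other genes, 298 in all.

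**Figure D3:**
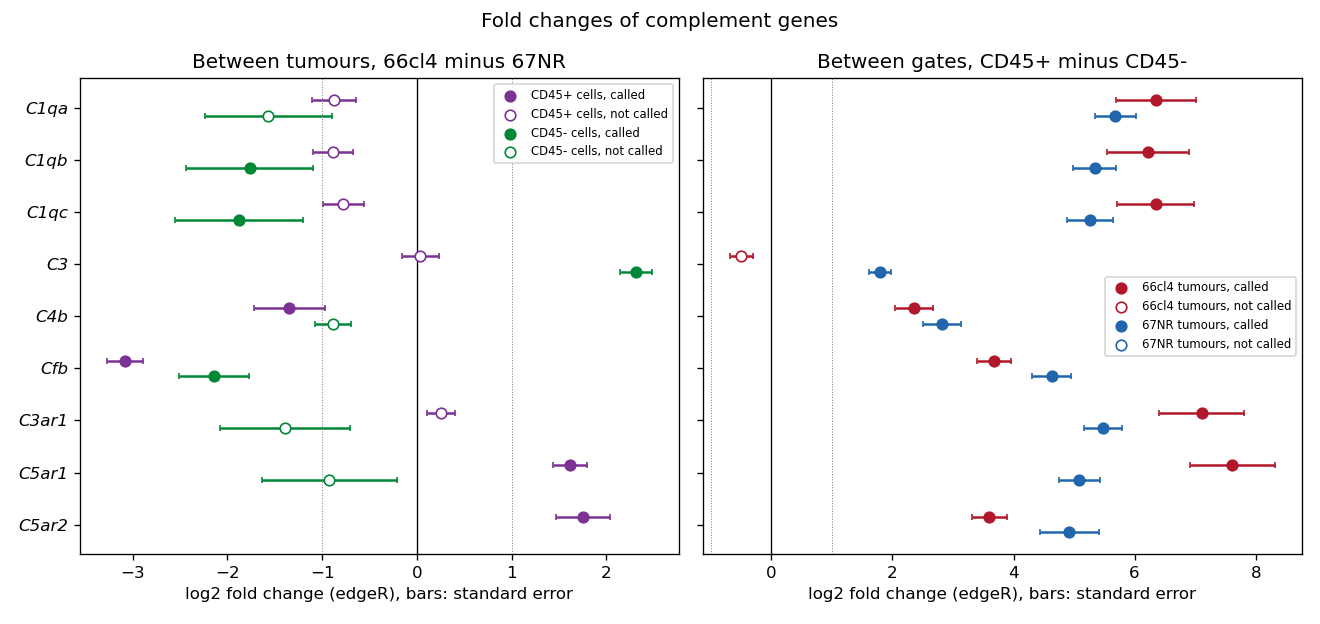
Log2 fold change of the 9 genes from edgeR, with standard errors, between tumours (left, 66cl4 minus 67NR) and between gates (right, CD45+ minus CD45-). Filled points are called, dotted lines mark a log2 fold change of 1 in either direction, and C5ar2 has no point for CD45- cells on the left. C3 lies at 0.03 in CD45+ and at 2.31 in CD45- cells, and C5ar1 at 1.62 and -0.92.

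An interaction term fitted to all 20 libraries asked whether the tumours differed alike in both gates, and 43.1% of 16453 genes had an adjusted p under 0.05 for it. The difference of the tumour effects was -2.27 ± 0.27 for C3 (edgeR, log2 scale, SE; adjusted p = 1.62e-06) and 2.55 ± 0.69 for C5ar1 (adjusted p = 0.00574). The fold change of C3 thus lay further towards 66cl4 in CD45- cells, where it was called, than in CD45+ cells, where it was not, and the fold change of C5ar1 lay further towards 66cl4 in CD45+ than in CD45- cells. C3ar1 was at the threshold, with 1.65 ± 0.66 (adjusted p = 0.04995) that held under 5 of the 25 alternatives tried. The chains C1qa, C1qb and C1qc and C4b, Cfb and C5ar2 had adjusted p-values of 0.0641 to 0.440. Without 66cl4 CD45- replicate 5, 6 of the 9 genes had an adjusted p under 0.05 in place of 3.

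Comparison of the gates within each tumour set levels in CD45+ libraries against those in CD45- libraries. As levels are scaled within each library, they do not give how the transcripts of a whole tumour were divided between the gates. In 66cl4 tumours 8 of the 9 genes were called higher in CD45+ cells, against 23.9% of 14916 genes called higher and 20.5% lower, and the libraries of the gates did not overlap for these 8 and for 61.4% of all genes. In 67NR tumours all 9 were called higher, against 20.2% of 15063 genes called higher and 19.6% lower, and none overlapped, compared with 55.5% of all genes. The median log2 fold change over the 9 genes was 6.21 and 5.09, and over all genes 0.00 and -0.05. Both gates come from the same animals, and in each of the 10 animals the 8 genes other than C3 were higher in CD45+ cells. A sign-flip test over 5 animals cannot go below 0.0625.

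Level in CD45- cells, as a share of that in CD45+ cells, varied among the genes. It was 1.18 to 1.31% for the C1q chains, 0.703% for C3ar1 and 0.488% for C5ar1 in 66cl4 tumours. The same share was 0.955% for the macrophage, 0.434% for the monocyte, 0.311% for the neutrophil and 0.644% for the T cell markers. In 67NR tumours it was 1.94 to 2.59% for the chains, 2.25% for C3ar1 and 2.92% for C5ar1, beside 2.59% for the macrophage, 1.598% for the monocyte, 3.58% for the neutrophil and 1.47% for the T cell markers. The neutrophil share there rests largely on Cxcr2, which had 426 to 776 counts, the most of the neutrophil genes in every 67NR CD45- library. In 66cl4 CD45- libraries Cxcr2 had 73 to 212 counts, also the most of the neutrophil genes except in animal 5, where S100a9 had 235. Without 66cl4 CD45- replicate 5 the shares in 66cl4 tumours were 0.669 to 0.786% for the chains, 0.395% for C3ar1, 0.258% for C5ar1 and 0.547% for the macrophage markers. Cfb (7.65% in 66cl4 and 4.00% in 67NR), C5ar2 (8.02% and 3.16%) and C4b (19.3% and 14.1%) had larger shares. For C5ar2 in 67NR tumours this share rests on 7 counts, and the level of CD45+ cells was 32.4-fold higher with an interval of 15.4 to 81.9 by counting error. The fibroblast markers, by the reverse share, stood in CD45+ cells at 6.0% (66cl4) and 10.4% (67NR) of their level in CD45- cells.

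C3 was the exception of the 9 genes. In 66cl4 tumours its mean was 137% of the CD45+ level in CD45- cells, and the CD45+ library was the lower one in 5 of 5 animals, at 0.542 to 0.901 of the CD45- level. The log2 fold change of -0.49 ± 0.19 (edgeR, SE; adjusted p = 0.0321) was too small for a call, and by levels the gates overlapped (exact permutation p = 0.0714). In 67NR tumours the CD45- level was 28.9% of that in CD45+ cells, which were higher in 5 of 5 animals by 2.13- to 4.52-fold (log2 fold change 1.79 ± 0.18, edgeR, SE; adjusted p = 4.81e-06). In the order of its mean levels C3 ran from 66cl4 CD45- (3881), through 66cl4 CD45+ (2825) and 67NR CD45+ (2774), which did not differ beyond their spread, to 67NR CD45- cells (802).

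**Figure D4:**
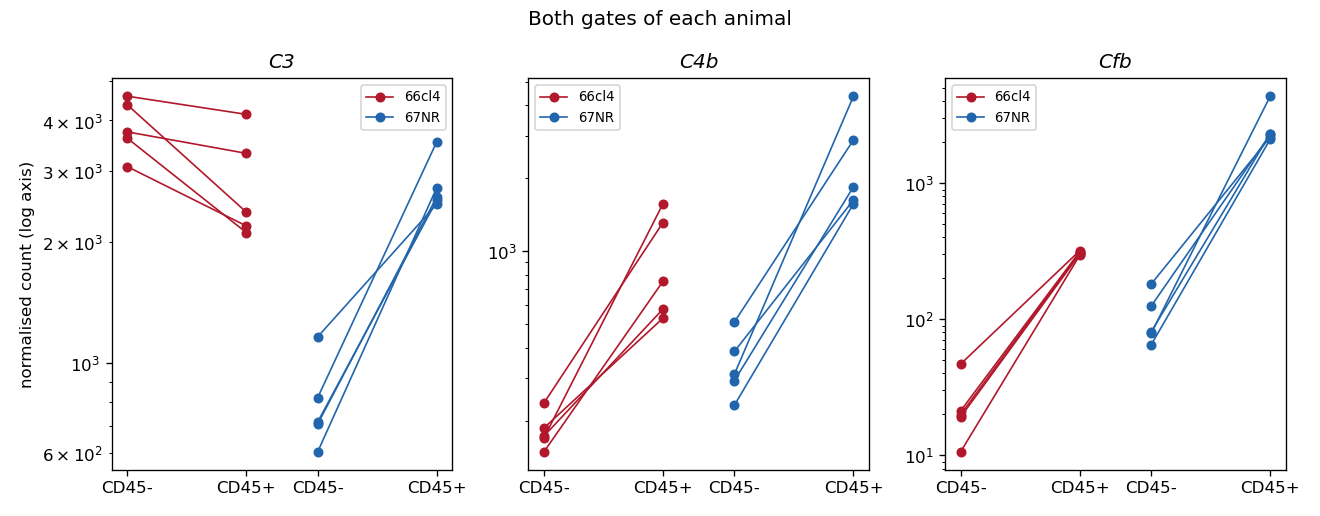
Levels of C3, C4b and Cfb (normalised count, log axis) in the CD45- and CD45+ libraries of each animal, joined by a line, for 66cl4 (red) and 67NR tumours (blue). C3 is lower in CD45+ than in CD45- cells in 5 of 5 66cl4 animals and higher in 5 of 5 67NR animals, whereas C4b and Cfb are higher in CD45+ cells in all 10.

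Genes of closest pattern were sought over the 20 libraries among 11201 genes, by the root mean square of the difference of centred log2 levels, in which 0 is an identical pattern. The C1q chains were nearest to each other (0.226 for C1qb with C1qc and 0.245 for C1qa with C1qb), and Gatm (0.268) was the next for C1qa. C3ar1 was nearest to Ctsc (0.234) and Igsf6 (0.275), and C5ar1 to Itgam (0.278), which encodes the alpha chain of complement receptor 3, and to Msr1 (0.325), a scavenger receptor. C3 was nearest to Rin2 (0.321) and Smpdl3b (0.347), and C4b to C4a (0.445), which shares sequence with it, and Clmp (0.455). Cfb, with Siglec1 (0.715) and Npl (0.783), and C5ar2, with Tmem156 (0.620) and Mirt1 (0.651), had no gene as close. As the gates differ for many genes, these values largely reflect the gate, and they are a description.

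A list of 45 other complement genes was followed beside the members. In CD45+ cells 24 were tested between the tumours, of which Itgam was called higher in 66cl4 and C2 and C6 lower, beside the 5.01% and 6.82% of all genes. Itgam had mean levels of 18762 in 66cl4 and 8366 in 67NR (log2 fold change 1.18 ± 0.22, edgeR, SE; adjusted p = 0.00271). C2, whose protein pairs with C4 as factor B does with C3, was at 3.82 to 10.5 in 66cl4 and 37.5 to 55.6 in 67NR libraries (log2 fold change -2.85, adjusted p = 0.000176). C6, a component of the membrane attack complex, was at 3.16 to 105 and 681 to 1340 (log2 fold change -4.01, adjusted p = 0.00148). The median over the list was 0.13 on the log2 scale, beside 0.01 over all genes.

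In CD45- cells 22 of the list were tested, 6 were called higher and 10 lower in 66cl4, with a median of -0.83 beside -0.01 over all genes. Proteases that act with C1q and the lectins were higher in 66cl4, namely C1ra (2807 against 553, log2 fold change 2.38), C1s1 (3971 against 1339, 1.6) and Masp1 (974 against 468, 1.09). Itgb2, the beta chain of leukocyte integrins, was higher as well, at 3204 to 3647 in 66cl4 and 176 to 313 in 67NR CD45- libraries (log2 fold change 3.92 ± 0.16, edgeR, SE; adjusted p = 1.01e-10), whereas its partner Itgam was not called (102 against 195, adjusted p = 0.313). Of the regulators that protect cells from complement, Cd59a (-3.24), Cd55 (-2.20) and Cd46 (-1.65) were lower in 66cl4, as was the inhibitor of C1, Serping1 (-1.45). The adjusted p-values of the named genes called were at most 5.47e-05 (edgeR). Hc, which encodes C5 and was picked after its values were seen, was low in all groups, with means of 6.82 to 28.7.

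Between the gates members of the list were called in both directions. In 66cl4 tumours 22 genes were tested, 10 higher and 6 lower in CD45+ cells. Cfp, which encodes properdin, the stabiliser of the alternative enzyme (log2 fold change 6.65), Itgax (8.14), Itgb2 (1.90) and Cd59a (5.55) were among the higher, and C1ra (-3.42), C1s1 (-4.67), C1s2 (-5.12) and Clu (-3.67) among the lower. In 67NR tumours 24 were tested, 11 higher, with Cfp (5.18), Itgb2 (5.01), Itgax (5.57) and Itgam (5.42) among them, and 7 lower, with Serping1 (-4.68), Masp1 (-2.53), C1s2 (-2.76) and C1s1 (-2.65). The chains of C1q thus stood in CD45+ cells of both tumours, and the proteases of the C1s genes in the CD45- cells.

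**Figure D5:**
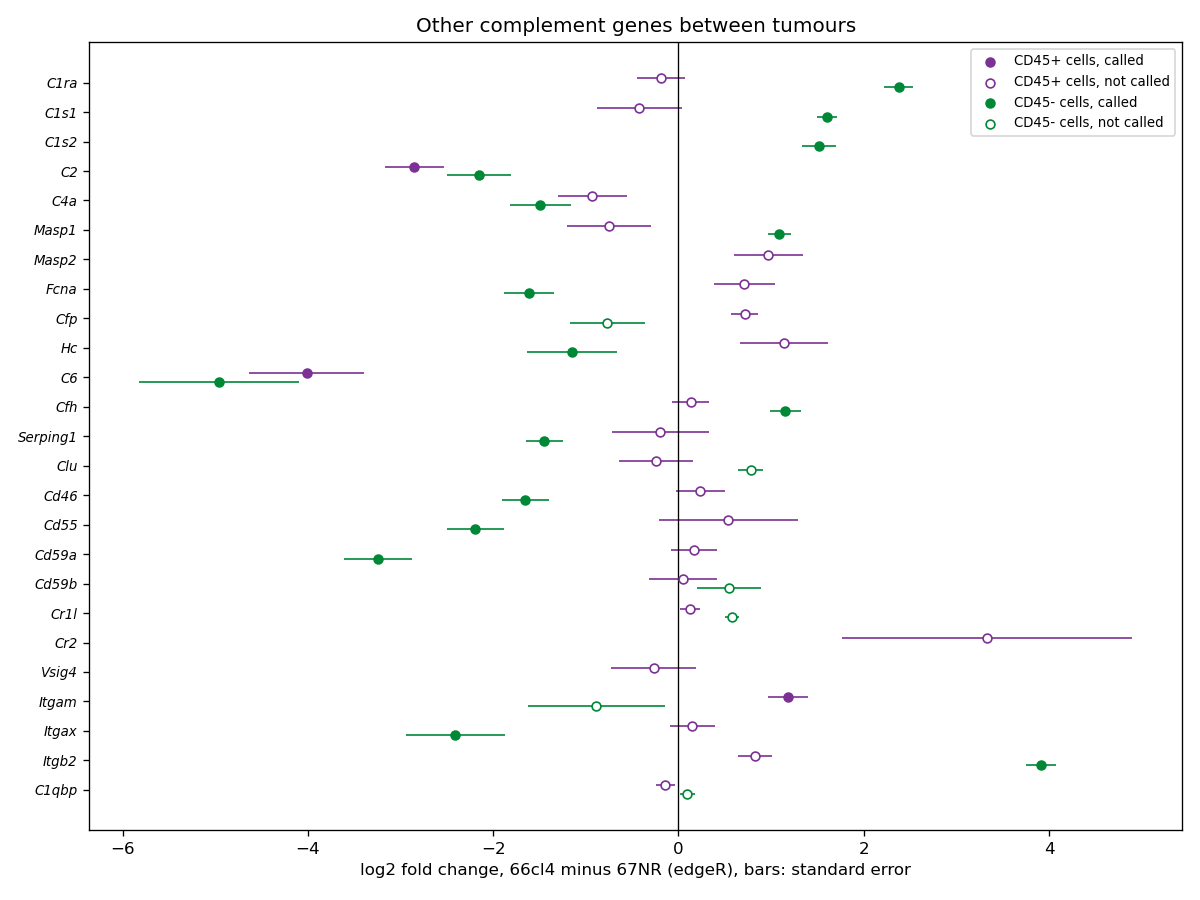
Log2 fold change (edgeR, 66cl4 minus 67NR, with standard errors) of the 25 other complement genes tested in CD45+ or CD45- cells. Filled points are called. C1ra, C1s1 and Masp1 lie to the right in CD45- cells alone, at 2.38, 1.6 and 1.09, and C2 and C6 lie to the left in both gates.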

How the data were processed

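Poly(A) RNA libraries (SENSE mRNA-Seq) of sorted cells were sequenced by the authors, demultiplexed with bcl2fastq, quantified with Salmon 1.3.0 and summed to genes with tximport. The authors deposited estimated counts per gene for 20 libraries, without normalisation. The sources name GRCh38, a human build, although the identifiers are of mouse Ensembl genes, so no gene coordinates are given from the table. Promoters are from RefSeq on GRCm38.p6. Symbols were found for 51492 of 52783 identifiers. Salmon divides reads that fit several genes, and shared stretches of 50 bases were counted in GENCODE M21 transcripts.

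Counts were rounded, which changed no value by more than 0.5, and samples were grouped by title. Total counts were 12959951 to 28080226 per library, and 3 counts, the limit that a count of 0 allows, are 1.07e-05 to 2.31e-05% of a library, by counting error only. Groups were compared in R 4.3.3 with edgeR 4.0.16 (quasi-likelihood test, TMM, genes filtered at 10 counts by group and 15 in total, robust estimation, Benjamini-Hochberg adjustment over all genes tested), using only the groups compared. A call needed an adjusted p under 0.05 and a log2 fold change beyond 1 in size, the thresholds of the study. The interaction used all 20 libraries. Levels, scaled to library depth by DESeq2 1.42.0 over the 20 libraries, were compared with two-sided exact permutation tests of the means. TPM used the longest transcript, and genes with no length held 2.54% of the summed levels. The fits were tested on simulated data.

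All 9 members are named in each comparison, and of the 45 other complement genes up to 4 called genes with the lowest adjusted p in each direction and a mean level of at least 10, with Hc and, in CD45- cells, Itgam besides. For each member the 2 genes of nearest pattern are named. The members, the lists of marker and complement genes and the tests were chosen with earlier results of these data known. Gates of a tumour with the same number come from 1 animal, which pairs them. The correlation of their deviations from the group means ranged in 66cl4 tumours from 0.0245 to 0.124 and in 67NR tumours from -0.00142 to 0.303. As alternatives, the fits were repeated with DESeq2, with RLE factors, unfiltered, over all 20 libraries together, with the fold threshold inside the test and with replicate numbers as blocks, and the levels as TMM-scaled CPM. Others were the omission of 66cl4 animals 5 and 6, of each library and of each macrophage marker. The sum of C4b and C4a and omission of 67NR animal 7, and of single CD45- libraries for shares and TPM, were added after the data were seen.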

Additional observations from a re-analysis of the deposited data

Results flagged for a closer look

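Among 40 groups of 5 libraries examined for a value far from the rest (the 9 members and the total count in 4 groups), 9 held one. Chance gives about 2 if the groups are independent. They are not, since the C1q chains ran together, so flags of these chains in a library are not separate events. In 67NR CD45+ cells animal 7 stood apart for C1qa (13986, others 6772 to 7758), C1qc (14980.1, others 7242 to 8900.0) and Cfb (4371, others 2109 to 2312). Its macrophage marker sum, 68433, was the highest and its neutrophil sum, 7185, the lowest of the group, and their part in these values was not tested. In the same group animal 4 stood apart for C3 (3541, others 2480.4 to 2725) and animal 1 for C5ar2 (64.0, others 31.9 to 37.6).

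In 67NR CD45- cells animal 4 stood apart for C1qa (319.6, others 126 to 141), C1qb (968, others 305 to 486) and C1qc (518, others 165 to 226), beside the highest macrophage marker sum of the CD45- libraries, 3005. Animal 7 of this group had the smallest library, with 16917011 counts against 21198982 to 22180281 in the others.

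The tumour effect differed between the gates for C3 (-2.27 for CD45+ minus CD45- cells on the log2 scale, adjusted p = 1.62e-06), C5ar1 (2.55, adjusted p = 0.00574) and C3ar1 (1.65, adjusted p = 0.04995), by the interaction term of edgeR.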

How the results depend on the processing

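Of the 4 members called in CD45+ cells, 2 passed a test against a log2 fold change of 1, in which 513 genes were called in place of 1736. C5ar2 (adjusted p = 0.0653) and C4b (adjusted p = 0.702) did not pass this edgeR test. Single omissions left 3 to 6 members and 1507 to 1880 genes. In CD45- cells 7 members were called in place of 4 with all 20 libraries in the fit, 2 with the test against a fold, 8 without 66cl4 animals 5 and 6, and 2 to 8 in single omissions. With the replicate number as a block, which between tumours is only a shared number (1 of 8 same-numbered pairs correlated best with its own number), 2 members were called in CD45- cells. The interaction gave 2 to 6 members in single omissions. For the gates, where the block is the animal, the replicate block changed no call of a member. A sign-flip test within animals, which cannot go below 0.0625, passed in 0 of the 17 gate comparisons of levels that had an exact p under 0.05. Of 36 comparisons of member levels 32 had an exact p under 0.05, and 20 did without 66cl4 animals 5 and 6, where 3 animals against 3 cannot go below 0.1. Per macrophage marker 3 of 6 genes held without Mertk. C3 in CD45+ cells had no stable sign, with a log2 fold change of -0.14 with the block, of -0.16 to 0.14 in single omissions by edgeR and of -0.15 to 0.13 by levels. Over all 4 comparisons and the interaction, the direction changed for no other member. The causes were not tested. Depth limits C5ar2 in CD45- cells, with 0 to 3 counts per 67NR library.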
